A study of Mus musculus with 16 samples.

Results

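Open chromatin near Tifab, Tifa, Traf6 and Alpk1, 4 genes of a connected signaling pathway, was examined in mouse fetal liver hematopoietic progenitors with and without the -77 enhancer of Gata2. The members were the 4 genes of 21755 protein-coding genes on chromosomes 1 to 19 and X, and the peaks assigned to them were those within 100 kb of the 5' end of the gene. ATAC-Seq, in which a transposase inserts adapters into accessible DNA, was performed on 16 libraries in 4 groups of 4. Cells with the genotype hi-77+/+ received an empty vector (hi-77+/+ empty), and cells with the genotype hi-77-/-, which lack the enhancer on both alleles, were transduced with the same empty vector (hi-77-/- empty), with GATA2 (hi-77-/- GATA2) or the variant 9aa-Ins (hi-77-/- 9aa-Ins). 9aa-Ins is GATA2 with an insertion that moves its zinc fingers apart. All groups shared the fetal liver origin, immortalization with an estrogen-regulated HoxB8, culture with β-estradiol, retroviral infection and FACS isolation of GFP-positive cells. The expression of GATA2 or 9aa-Ins came from a retrovirus and not from the Gata2 locus, and a difference between genotypes cannot be told apart from a difference between the cell lines that carry them. The methods call the libraries biological replicates and the labels do not say that they were separate cultures, so p-values measure only the spread between these libraries.

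TRAF6 is a ubiquitin ligase that relays signals from Toll-like and interleukin-1 receptors to TAK1 and NF-kB. TIFA is an adaptor with a forkhead-associated domain that binds TRAF6 and promotes its clustering, and ALPK1 is a kinase that senses bacterial heptose metabolites and phosphorylates TIFA. TIFAB is a TIFA-related protein that restrains TRAF6, and its loss has been linked to myelodysplastic syndrome. GATA2 is a zinc finger transcription factor required for hematopoietic stem and progenitor cells.

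The libraries held 50195 to 112267 peaks, and the numbers of reads behind them are unknown. GATA2 libraries had 49852 to 77687 peaks on chromosomes 1 to 19 and X and 9aa-Ins libraries 70219 to 107594, so the 49000 most significant peaks were taken from each library. Each peak was given a rank score, which is 100 for the most significant peak of its library and falls evenly to just above 0 for the last, with 0 for no peak among the 49000. The rank score describes the standing of a peak within its library, not an amount of accessibility. The last peak taken had a significance (-log10 q) of 5.88 to 7.15 in hi-77+/+ empty and 4.94 to 5.66 in hi-77-/- empty. It was 2.87 to 4.99 with GATA2 and 6.39 to 9.34 with 9aa-Ins, so a score of 0 stands for unlike limits of significance. Overlapping peaks were merged into 90549 regions. The promoters of all 8 progenitor markers (Kit, Cd34, Spi1, Ptprc, Runx1, Myb, Lyl1 and Tal1) had a peak in all 16 libraries. None of the 3 hepatocyte markers (Alb, Afp and Apoa1), and neither of the T lineage markers Cd3e and Cd4, had a promoter peak in any library. Other unrelated types were mixed. The fibroblast marker Col1a1 had a promoter peak in 15 of 16 libraries, the neuron marker Syp in 15 and the endothelial marker Pecam1 in 14. Col3a1, Rbfox3 and Cdh5, of the same 3 types, had one in none. Of the mast cell markers, the promoter of Cpa3 had a peak in 4 of 4 GATA2 libraries and in 0 of the other 12, and that of Mcpt4 in none. The promoters of the erythroid markers Klf1 and Epor had a peak in all 16 libraries. Ebf1 and Adgre1 also had promoter peaks in all 16 libraries, and Csf1r and Pax5 in none. The part of such markers in the differences below was not tested.

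There were 52 regions within 100 kb of a member. They comprised 20 near Tifab, 21 near Traf6, 6 nearest to Tifa and 5 nearest to Alpk1. The 5' ends of Tifa and Alpk1 are 9278 bp apart on opposite strands, and 10 regions lay within 100 kb of both and were counted once. A peak was present in all 16 libraries in 13 regions and in a single library in 10. The latter did not pass the filter of a peak in at least 2 libraries, which left 42 regions in a limma fit across all 71419 regions that passed it.

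To ask which of these regions depend on the -77 enhancer, hi-77-/- empty was compared with hi-77+/+ empty. Of the 42 regions, 15 had a higher rank score without the enhancer (limma, adjusted p under 0.05), and the background was 15.5% of all regions tested. A lower score was called at 4 regions, against a background of 14.5%. Tifab and Traf6 each had 7 of the higher regions, and Tifa had 1. Regions with a peak in 4 of 4 libraries of 1 group and 0 of 4 of the other are called opened or closed. The deletion opened 5 of the 52 regions (background 3.59% of all regions), of which 4 were in the Traf6 window and 1 in the Tifab window, and it closed none (background 2.11%).

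Restoring GATA2 addressed which regions respond to the protein. A lower rank score with GATA2 than with the empty vector in hi-77-/- cells was called at 14 of the 42 regions (background 9.25%), 6 near Tifab, 7 near Traf6 and 1 near Tifa. A higher score was called at 1 region (background 6.56%), which was near Traf6. GATA2 closed 3 regions (background 2.23%), all near Traf6, and opened none (background 1.73%). The hi-77-/- empty libraries serve in this comparison and in the comparison of genotypes, so the directions of both are not independent.

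The 9aa-Ins libraries were compared with the same hi-77-/- empty libraries. A higher score was called at 1 region, near Alpk1 (background 4.28%), and a lower one at 4 regions (background 1.46%), 3 near Traf6 and 1 near Tifab. A single region was closed (background 0.171%) and none was opened (background 1.35%). In the direct comparison of both proteins, 10 regions scored higher with 9aa-Ins than with GATA2 (background 12.3%), 6 near Tifab, 2 near Traf6, 1 near Tifa and 1 near Alpk1. One region near Traf6 scored lower (background 6.44%). 9aa-Ins opened 1 region relative to GATA2 (background 2.97%) and closed 1 (background 1.47%).

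Tifab (ENSMUSG00000049625.6) lies on the minus strand of chromosome 13, at chr13:56173704-56178885 in mm10. A chain of 5 regions downstream of the 5' end was called both with the deletion and with GATA2. The promoter was called with GATA2 and not with the deletion. All distances are from the 5' end in the direction of transcription, to the middle of the region. The region at +5.7 kb (chr13:56172677-56173698) lies just beyond the 3' end of the gene, and those at +15.9 kb (chr13:56162460-56163424), +19.4 kb (chr13:56158891-56160058) and +27.3 kb (chr13:56151372-56151817) are intergenic. The region at +46.2 kb (chr13:56132342-56133090) is in an intron of the neighboring gene H2afy, which encodes a macroH2A histone variant.

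The DNA at these sites is shown because each scored lower with GATA2 than with the empty vector and, in the direct comparison, higher with 9aa-Ins than with GATA2, although the latter call did not hold at +27.3 and +46.2 kb with 0.5 of the 49000 peaks per library. Each sequence is the plus strand of GRCm38, 300 bases around the median summit of the peaks, except the promoter, which is the RefSeq (GRCm38.p6) sequence of the 250 bases before the start of Tifab on the strand of the gene (chr13:56178886-56179135). Capitals mark the ETS word GGAAGT or a GATA word, on either strand. The GATA words are AGATAA and its form AGATAG, and likewise TGATAA and its form TGATAG. Shorter ETS words such as GGAA were not searched.
Tifab promoter: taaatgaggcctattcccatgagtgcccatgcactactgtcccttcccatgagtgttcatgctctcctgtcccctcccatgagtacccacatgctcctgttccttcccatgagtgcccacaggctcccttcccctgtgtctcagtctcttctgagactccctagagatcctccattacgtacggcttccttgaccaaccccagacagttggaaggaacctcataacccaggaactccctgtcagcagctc
Tifab +5.7 kb, chr13:56173186-56173485: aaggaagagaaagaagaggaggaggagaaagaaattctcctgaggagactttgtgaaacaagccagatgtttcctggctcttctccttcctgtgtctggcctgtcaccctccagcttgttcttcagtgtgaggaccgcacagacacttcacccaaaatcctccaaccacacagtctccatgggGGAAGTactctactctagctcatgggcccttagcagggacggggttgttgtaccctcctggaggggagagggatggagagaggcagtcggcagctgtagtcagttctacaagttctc
Tifab +15.9 kb, chr13:56162855-56163154: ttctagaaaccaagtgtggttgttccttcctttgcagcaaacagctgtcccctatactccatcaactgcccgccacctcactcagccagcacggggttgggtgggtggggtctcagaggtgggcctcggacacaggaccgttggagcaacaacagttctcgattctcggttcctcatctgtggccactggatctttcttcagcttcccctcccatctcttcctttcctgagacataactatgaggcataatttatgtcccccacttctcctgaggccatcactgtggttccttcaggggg
Tifab +19.4 kb, chr13:56159159-56159458: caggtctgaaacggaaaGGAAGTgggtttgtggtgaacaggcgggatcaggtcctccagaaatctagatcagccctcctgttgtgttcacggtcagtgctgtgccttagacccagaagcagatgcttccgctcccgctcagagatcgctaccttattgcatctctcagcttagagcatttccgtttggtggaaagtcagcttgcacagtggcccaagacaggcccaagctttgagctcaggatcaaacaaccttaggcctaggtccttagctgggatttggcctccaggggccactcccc
Tifab +27.3 kb, chr13:56151440-56151739: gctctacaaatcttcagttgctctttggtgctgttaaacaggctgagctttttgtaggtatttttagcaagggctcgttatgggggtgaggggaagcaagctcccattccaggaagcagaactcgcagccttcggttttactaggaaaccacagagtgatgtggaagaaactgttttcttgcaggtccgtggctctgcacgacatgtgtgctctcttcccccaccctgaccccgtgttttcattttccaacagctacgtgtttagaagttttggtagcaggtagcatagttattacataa
Tifab +46.2 kb, chr13:56132513-56132812: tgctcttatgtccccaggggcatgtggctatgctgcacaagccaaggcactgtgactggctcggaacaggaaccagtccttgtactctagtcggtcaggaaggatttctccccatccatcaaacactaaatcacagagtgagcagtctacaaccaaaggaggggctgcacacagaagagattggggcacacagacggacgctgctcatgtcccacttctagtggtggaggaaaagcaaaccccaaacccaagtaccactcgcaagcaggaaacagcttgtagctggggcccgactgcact

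No GATA word was found in any of these windows, and the ETS word GGAAGT was found at +5.7 kb and +19.4 kb. Over all 90549 regions, windows of the same length held a GATA word in 36.6% and the ETS word in 33.2%. Of the 52 windows near the members, 14 held a GATA word and 15 the ETS word. Among the 14 regions that scored lower with GATA2, 2 held a GATA word and 6 the ETS word. The palindromic EBF1 motif (TCCC, any 2 bases, then GGGA) was in none of the 52 windows and in 1.80% of all regions. Both strands were searched. The match of a motif describes the letters in the window and not the binding of a factor.

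The region at +15.9 kb had the largest difference in score between the genotypes among the regions near Tifab. It had no peak among the 49000 of any hi-77+/+ empty library and rank scores of 74.2, 79.8, 71.6 and 86.6 in the hi-77-/- empty libraries. With GATA2 the scores were 0.59, 45.1, 48.6 and 48.0, and with 9aa-Ins 74.0, 87.3, 91.7 and 79.1. The 9aa-Ins and hi-77-/- empty libraries therefore had overlapping ranges, the GATA2 libraries lay below both, and hi-77+/+ empty was the lowest. The score without the enhancer was higher by 78.0 ± 8.6 (SE, limma adjusted p = 9.96e-06), and that with GATA2 differed from the empty vector by -42.5 ± 8.6 (adjusted p = 0.00286). The difference between 9aa-Ins and GATA2 was 47.4 ± 8.6 (adjusted p = 0.00111), and that between 9aa-Ins and the empty vector was 5.0 ± 8.6, which was not called (adjusted p = 1). In the complete lists, all 4 hi-77+/+ empty libraries had a weaker peak in this region, so opened here means a peak that entered the 49000 most significant.

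**Figure D1:**
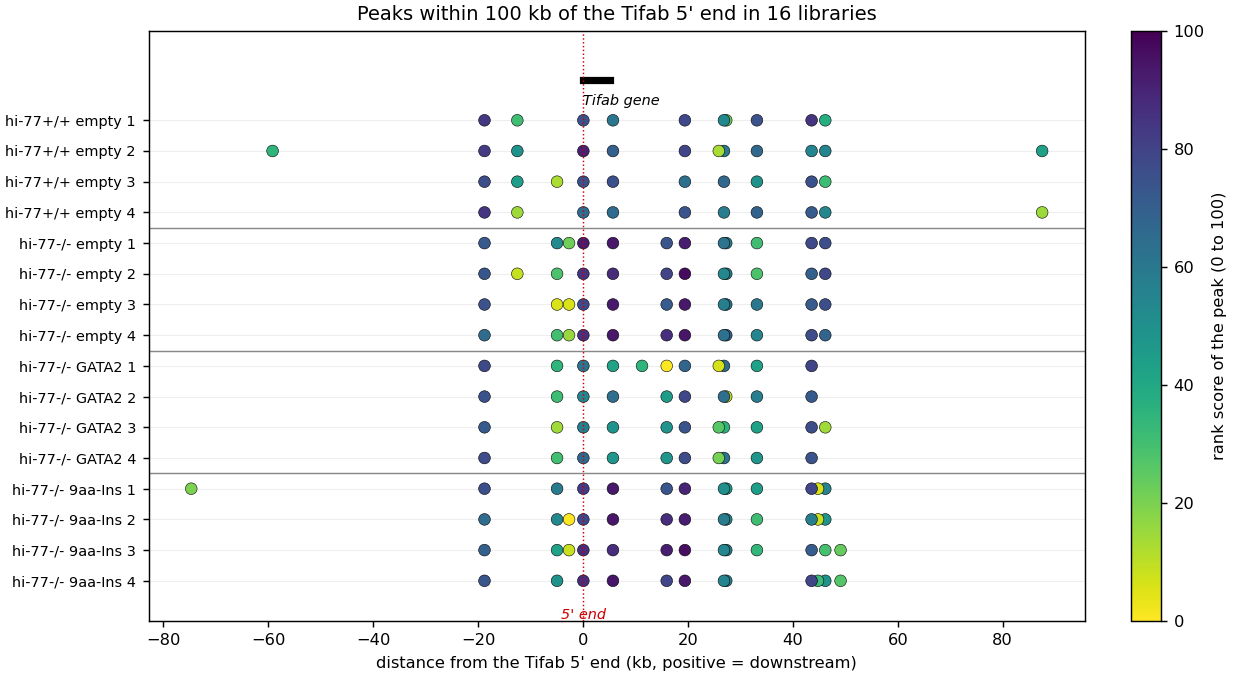
Each point is a region with a peak in that library, placed by its distance from the Tifab 5' end in kb and colored by its rank score from 0 to 100; the 16 libraries are rows. At +15.9 kb there are no points in the 4 hi-77+/+ empty rows and a point in each of the other 12.

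The region just past the gene, at +5.7 kb, had a peak in all 16 libraries and changed in rank. Scores were 60.6, 69.8, 75.1 and 65.4 in hi-77+/+ empty, and 93.9, 87.7, 93.1 and 93.5 in hi-77-/- empty. The GATA2 libraries scored 42.2, 63.9, 48.6 and 48.0, and the 9aa-Ins libraries 93.5, 94.0, 87.2 and 94.2. Every hi-77-/- empty and 9aa-Ins library was above every hi-77+/+ empty and GATA2 library. The change was 24.3 ± 4.2 with the deletion (adjusted p = 0.000575), -41.4 ± 4.2 with GATA2 (adjusted p = 7.00e-06) and 41.6 ± 4.2 between 9aa-Ins and GATA2 (adjusted p = 6.87e-06). 9aa-Ins and the empty vector differed by 0.18 ± 4.2 (adjusted p = 1), smaller than the SE. The deposited fold enrichment over the background of the same library was 26.8 to 32.4 in hi-77-/- empty and 6.88 to 11.9 with GATA2, and the peaks were 679 to 894 and 220 to 400 (bp) wide.

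The region at +19.4 kb also scored highest in hi-77-/- empty and 9aa-Ins. Scores were 78.1, 79.2, 63.8 and 73.8 in hi-77+/+ empty and 92.0, 97.0, 93.7 and 94.5 in hi-77-/- empty. They were 67.9, 78.2, 74.0 and 76.99 with GATA2 and 90.1, 92.4, 96.4 and 93.7 with 9aa-Ins. The hi-77+/+ empty and GATA2 libraries overlapped each other, and both lay below the other groups. The score was 20.5 ± 3.3 higher with the deletion (adjusted p = 0.000323), differed by -20.01 ± 3.3 with GATA2 (adjusted p = 0.000615) and was 18.9 ± 3.3 higher with 9aa-Ins than with GATA2 (adjusted p = 0.000899). Peaks in this region were at least 1 kb wide in 1 hi-77+/+ empty, 2 hi-77-/- empty, 0 GATA2 and 3 9aa-Ins libraries. Leaving out peaks of that width, as the study's filter does, removes the strongest values and turned the signs of the differences, to -9.5, 30.1 and -54.7, with no call (adjusted p = 0.921, 0.647 and 0.219).

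At +27.3 kb a peak among the most significant ones taken was nearly limited to the hi-77-/- empty and 9aa-Ins libraries. In the complete lists, 3 of 4 hi-77+/+ empty and 1 of 4 GATA2 libraries had a peak there. The hi-77+/+ empty libraries scored 22.0, 0, 0 and 0, and hi-77-/- empty 56.0, 59.4, 60.2 and 69.7. With GATA2 the scores were 0, 8.9, 0 and 0, and with 9aa-Ins 44.8, 53.0, 58.2 and 56.6. Neither pair of groups, high or low, overlapped the other. Differences were 55.8 ± 5.0 for the deletion (adjusted p = 1.42e-06), -59.1 ± 5.0 for GATA2 (adjusted p = 1.13e-06) and 50.9 ± 5.0 for 9aa-Ins against GATA2 (adjusted p = 5.17e-06). A region less than 1 kb away, at +26.9 kb, had a peak in all 16 libraries, with mean scores of 59.2 ± 5.5 (SD, n = 4) in hi-77+/+ empty, 59.0 ± 4.4 in hi-77-/- empty, 56.5 ± 13.98 with GATA2 and 54.4 ± 3.5 with 9aa-Ins. It was called in none of the comparisons.

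The region at +46.2 kb, in the H2afy intron, had the largest difference with GATA2 among the regions near Tifab. Scores were 37.9, 54.5, 31.4 and 53.6 in hi-77+/+ empty and 75.8, 78.6, 76.5 and 68.2 in hi-77-/- empty. With GATA2, 1 of 4 libraries had a peak among the most significant ones taken (scores of 0, 0, 14.3 and 0), and 3 of 4 had one in the complete lists. The 9aa-Ins libraries scored 55.0, 48.1, 29.4 and 49.6. The difference with GATA2 was -71.2 ± 6.1 (adjusted p = 1.35e-06). Unlike the other Tifab regions, this one was also called lower with 9aa-Ins than with the empty vector, with a difference of -29.3 ± 6.1 (adjusted p = 0.00983), and the 9aa-Ins libraries overlapped hi-77+/+ empty. 9aa-Ins remained above GATA2 by 41.9 ± 6.1 (adjusted p = 0.000201), and the deletion raised the score by 30.4 ± 6.1 (adjusted p = 0.00185). The broad region nearest the H2afy 5' end, at +43.6 kb, had a peak in all 16 libraries and was not called.

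The Tifab promoter (chr13:56178452-56179217), which overlaps the first exon and its UTR, was accessible in every library. Scores were 74.8, 90.8, 75.1 and 65.4 in hi-77+/+ empty, and 92.6, 85.1, 77.9 and 86.6 in hi-77-/- empty. They were 61.8, 54.3, 57.3 and 66.1 with GATA2 and 82.7, 77.9, 87.2 and 87.3 with 9aa-Ins. The GATA2 libraries were below all hi-77-/- empty and 9aa-Ins libraries, whereas both empty vector groups overlapped. GATA2 differed from the empty vector by -25.6 ± 4.8 (adjusted p = 0.00164), and 9aa-Ins exceeded GATA2 by 23.9 ± 4.8 (adjusted p = 0.00259). The deletion gave 9.0 ± 4.8 and 9aa-Ins against the empty vector -1.8 ± 4.8, neither of which was called (adjusted p = 0.180 and 1).

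**Figure D2:**
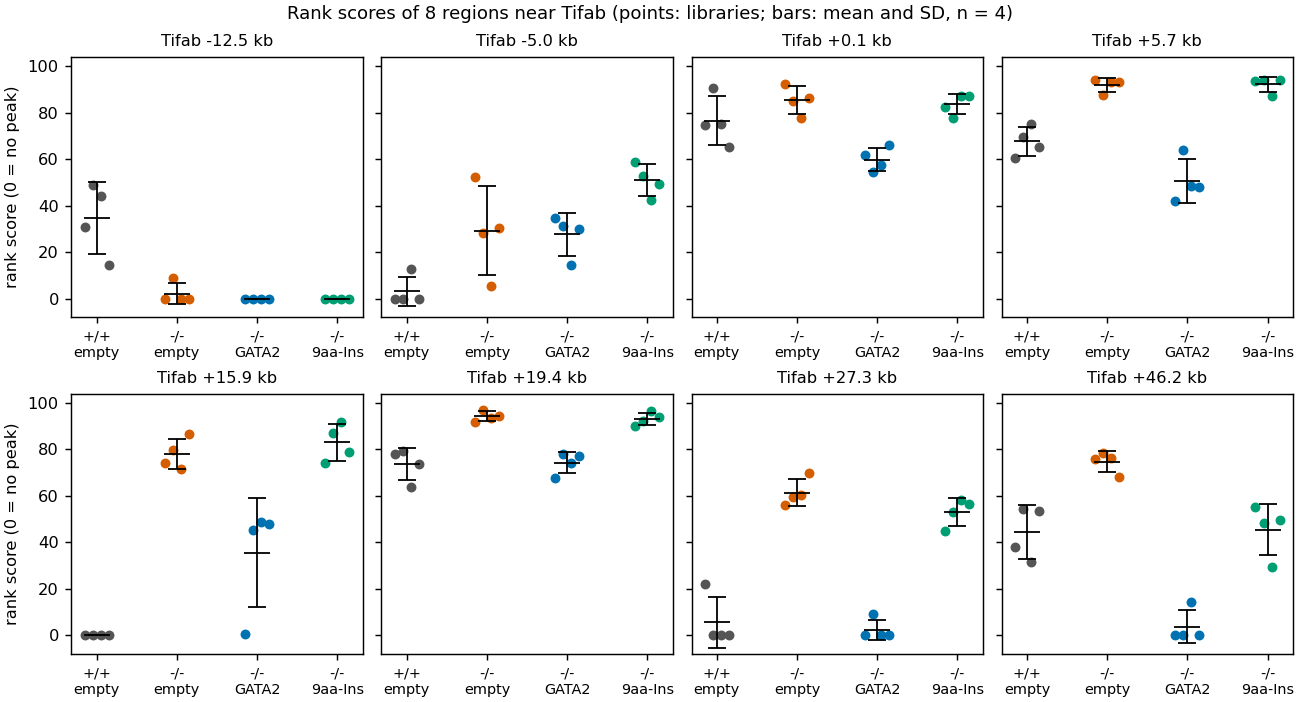
Rank scores (vertical axis, 0 to 100, 0 for no peak) of the 8 named regions near Tifab in 4 groups; points are libraries and bars the mean and SD (n = 4). GATA2 libraries lie below hi-77-/- empty at +0.1, +5.7, +15.9, +19.4, +27.3 and +46.2 kb, and the upstream regions at -5.0 and -12.5 kb show other patterns.

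Upstream of Tifab the order of groups was different. The region at -12.5 kb (chr13:56191336-56191500) scored 30.8, 49.1, 44.3 and 14.5 in hi-77+/+ empty, 0, 8.7, 0 and 0 in hi-77-/- empty, and 0 in all GATA2 and 9aa-Ins libraries. The deletion changed its score by -32.5 ± 5.5 (adjusted p = 0.000475), and neither protein brought the peak back among the 49000. In the complete lists, 4 of 4 libraries of both empty vector groups, 3 of 4 9aa-Ins and 0 of 4 GATA2 libraries had a peak there. The region at -5.0 kb (chr13:56183434-56184250) scored 0, 0, 12.6 and 0 in hi-77+/+ empty, 52.4, 28.2, 5.6 and 30.3 in hi-77-/- empty, 34.8, 31.3, 14.3 and 30.1 with GATA2 and 59.0, 53.0, 42.4 and 49.6 with 9aa-Ins. In the complete lists, 4 of 4 hi-77+/+ empty libraries had a peak in this region. Its difference with the deletion was 26.0 ± 7.8 (adjusted p = 0.0208), with overlap of the groups, and GATA2 was not called there (-1.5 ± 7.8, adjusted p = 1). A further pair of regions was called with the deletion, 1 higher and 1 lower. Of the 20 regions near Tifab, 10 were called in at least 1 comparison, 7 were tested and not called, and 3 had a peak in a single library.

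With all deposited peaks, the deletion calls at -5.0, +5.7, +19.4 and +46.2 kb were lost (adjusted p = 0.141, 0.132, 0.0626 and 0.200), as were the GATA2 call at +15.9 kb (0.105) and the 9aa-Ins call at +46.2 kb (0.375). With 0.5 of the 49000 peaks, the difference between 9aa-Ins and GATA2 was 8.9 at +27.3 kb (adjusted p = 0.242) and 2.5 at +46.2 kb (0.822), and the deletion difference at -5.0 kb was 1.2 (0.861), so that none of these calls held. Where a peak had to cover 50% of the region, the deletion calls at -5.0 and +19.4 kb (adjusted p = 0.418 and 0.0709) and the 9aa-Ins call at +46.2 kb (0.0629) were lost. The deletion call at -5.0 kb was also lost with only the 8 libraries compared (0.0685) and without hi-77-/- empty replicate 1 (0.0560). The score at +15.9 kb in GATA2 replicate 1, 0.59, was far below the other 3 GATA2 libraries.

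Traf6 (ENSMUSG00000027164.8) lies on the plus strand of chromosome 2, at chr2:101678429-101701669. Its promoter (chr2:101678188-101679054, overlapping the first exon and its UTR) was accessible in all libraries. Scores were 89.1, 91.4, 90.3 and 91.6 in hi-77+/+ empty and 78.3, 80.5, 82.7 and 85.5 in hi-77-/- empty. With GATA2 they were 79.1, 83.7, 84.3 and 90.1, and with 9aa-Ins 74.7, 80.4, 82.0 and 71.4. The hi-77+/+ empty libraries were above all hi-77-/- empty libraries, and the difference was small (-8.9 ± 2.9, adjusted p = 0.0301). This call was lost without any one of hi-77+/+ empty replicates 2, 3 and 4 or hi-77-/- empty replicates 1 and 2 (adjusted p = 0.0503 to 0.0843). It was also lost with all deposited peaks (0.107), with a minimum of 5 for -log10 q (0.0575), with peaks narrower than 1 kb (0.101) and with 50% cover (1). The comparisons of GATA2 and 9aa-Ins with the empty vector gave 2.6 ± 2.9 and -4.6 ± 2.9, with no call (adjusted p = 0.687 and 0.535).

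The regions that changed in the Traf6 window were distant from Traf6, and most lay at neighboring genes. Between -77.7 and -28.9 kb, 7 regions were called, all nearer to the 5' end of Rag2, Rag1 or the overlapping gene B230118H07Rik than to that of Traf6. Rag1 and Rag2 encode the recombinase of antigen receptor genes. A further pair, at +84.2 and +84.8 kb, lay in an intron of Prr5l. The tenth called region was the promoter. The within-window position does not say which gene a region serves.

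The region at -55.2 kb (chr2:101623090-101623436, 1.5 kb from the Rag2 5' end) was opened by the deletion and closed by GATA2. It had no peak among the most significant ones taken in any hi-77+/+ empty or GATA2 library. Scores were 18.9, 38.8, 31.5 and 50.5 in hi-77-/- empty and 17.4, 0, 13.8 and 10.5 with 9aa-Ins. In the complete lists, 1 of 4 hi-77+/+ empty, 1 of 4 GATA2 and 4 of 4 9aa-Ins libraries had a peak there. The differences were 34.9 ± 5.2 with the deletion (adjusted p = 0.000171), -34.9 ± 5.2 with GATA2 (adjusted p = 0.000254) and -24.5 ± 5.2 with 9aa-Ins (adjusted p = 0.0110). The scores with 9aa-Ins were all below the lowest hi-77-/- empty library. The 9aa-Ins difference was -3.2 with all deposited peaks (adjusted p = 0.941), and its call was also lost with peaks narrower than 1 kb (0.0524) and with only the 8 libraries compared (0.0935). A weaker region of the same kind at -53.2 kb scored 27.8, 16.2, 13.5 and 0.72 in hi-77-/- empty, 3.0, 0, 0 and 10.5 with 9aa-Ins and 0 in the other 8 libraries. In the complete lists, it had a peak in 2 of 4 hi-77+/+ empty, 2 of 4 GATA2 and 4 of 4 9aa-Ins libraries. Its deletion call had an adjusted p of 0.0188 and its GATA2 call 0.0313, and the latter was lost without any one of hi-77-/- empty replicates 1, 2 and 3 or GATA2 replicates 1, 2, 3 and 4 (adjusted p = 0.0551 to 0.0756), with the replicate block (0.0550) and where tied peaks shared a mean rank (0.0505). Both calls were lost with 50% cover (0.386 and 0.520) and with only the 8 libraries compared (0.0775 and 0.116).

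The region at -28.9 kb (chr2:101649448-101649687), which overlaps annotated exons of Rag1 and B230118H07Rik, was the single region that both proteins closed. Scores were 27.8, 38.8, 13.5 and 11.9 in hi-77-/- empty and 0 in the other 12 libraries. The deletion changed it by 23.0 ± 4.4 (adjusted p = 0.00133), GATA2 by -23.0 ± 4.4 (adjusted p = 0.00207) and 9aa-Ins by -23.0 ± 4.4 (adjusted p = 0.00545). In the complete lists, 3 of 4 9aa-Ins libraries and 1 of 4 GATA2 libraries had a weaker peak there, and the 9aa-Ins call was lost with all deposited peaks (adjusted p = 0.276), with 50% cover (0.0668) and with only the 8 libraries compared (0.0669). The region at -77.7 kb was also opened by the deletion, with scores of 35.3, 38.8, 31.5 and 28.0 in hi-77-/- empty, 22.3, 3.8, 32.6 and 0 with GATA2 and 17.4, 5.6, 5.1 and 0 with 9aa-Ins, and 0 in hi-77+/+ empty. In the complete lists, 2 of 4 hi-77+/+ empty, 3 of 4 GATA2 and 4 of 4 9aa-Ins libraries had a peak in this region. Its 9aa-Ins difference was -26.4 ± 6.0 (adjusted p = 0.0168), lost without hi-77-/- empty replicate 2 or 9aa-Ins replicate 4 (adjusted p = 0.0513 to 0.0557) and with peaks narrower than 1 kb (0.0664), and it was -8.2 with all deposited peaks (0.811). Its GATA2 difference of -18.7 ± 6.0 was at the threshold (adjusted p = 0.0495) and was lost without any one of hi-77+/+ empty replicates 1, 2, 3 and 4, hi-77-/- empty replicates 1, 2, 3 and 4, GATA2 replicates 2 and 4 or 9aa-Ins replicates 2, 3 and 4 (adjusted p = 0.0550 to 0.140), with all deposited peaks (0.248), without peaks of 1 kb or more (0.0789), with no filter on libraries (0.0646) and with only the 8 libraries compared (0.145).

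The region at -30.1 kb had the opposite pattern and is shown because it was the only region of the 42 called higher with GATA2. It lies in an intron annotated to Rag1 and B230118H07Rik, and its 300-base window (plus strand, GRCm38) holds none of the searched motifs.
Traf6 -30.1 kb, chr2:101648163-101648462: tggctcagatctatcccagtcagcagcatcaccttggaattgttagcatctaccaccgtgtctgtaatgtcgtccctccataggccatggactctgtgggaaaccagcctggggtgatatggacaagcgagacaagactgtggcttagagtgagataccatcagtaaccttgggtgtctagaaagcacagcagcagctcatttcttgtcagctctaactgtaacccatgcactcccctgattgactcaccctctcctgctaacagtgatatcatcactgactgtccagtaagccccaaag
GATA2 libraries scored 69.5, 28.1, 32.6 and 41.3 there, hi-77-/- empty 0, 0, 0 and 0.72, and all hi-77+/+ empty and 9aa-Ins libraries 0. The difference was 42.7 ± 6.3 for GATA2 against the empty vector (adjusted p = 0.000222) and -42.9 ± 6.3 for 9aa-Ins against GATA2 (adjusted p = 0.000204). In the complete lists the peak was in 4 of 4 GATA2, 3 of 4 hi-77-/- empty, 1 of 4 hi-77+/+ empty and 0 of 4 9aa-Ins libraries.

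**Figure D3:**
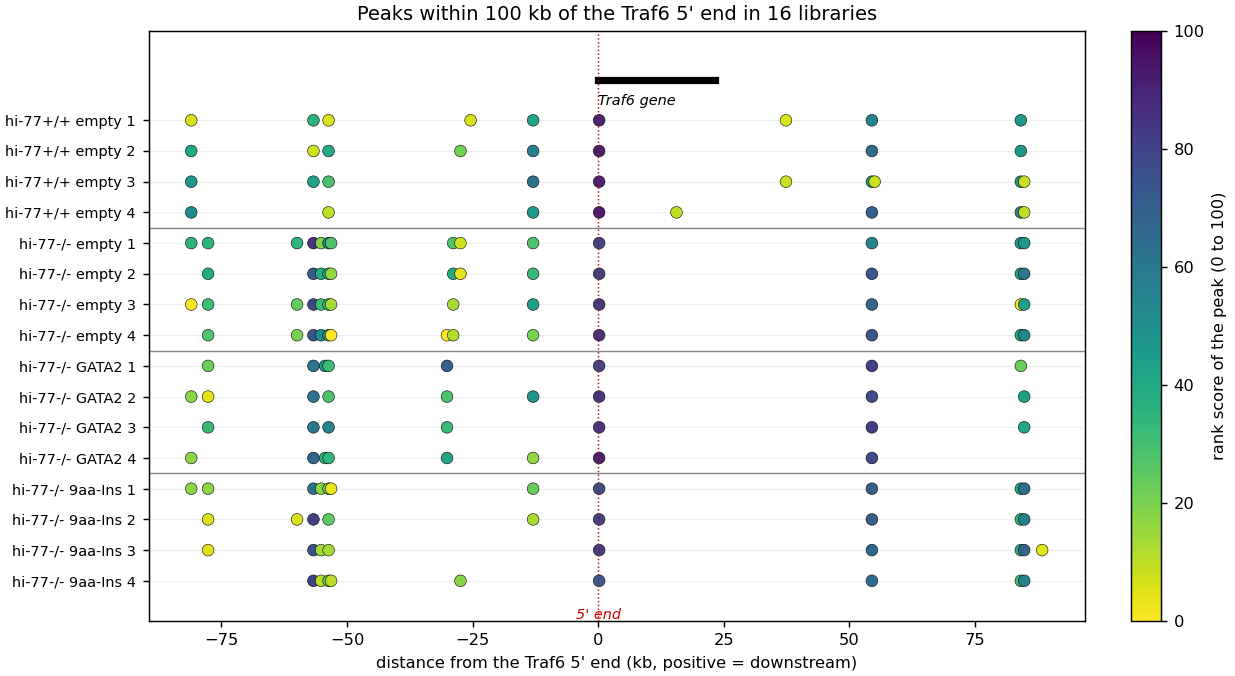
Each point is a region with a peak in that library, placed by its distance from the Traf6 5' end in kb and colored by its rank score from 0 to 100; the 16 libraries are rows. Peaks at -30.1 kb are in the 4 GATA2 rows and 1 hi-77-/- empty row, and those at -28.9 kb in the 4 hi-77-/- empty rows alone.

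At -56.7 kb the deletion was called and neither protein was called against the empty vector. Scores were 35.6, 7.7, 42.4 and 0 in hi-77+/+ empty and 85.6, 72.6, 80.1 and 73.3 in hi-77-/- empty, and 60.6, 62.9, 59.5 and 67.3 with GATA2 and 63.3, 81.3, 75.0 and 79.6 with 9aa-Ins. All 12 hi-77-/- libraries were above all hi-77+/+ empty libraries. The deletion raised the score by 56.5 ± 7.8 (adjusted p = 8.65e-05), and the GATA2 difference of -15.3 ± 7.8 was not called (adjusted p = 0.241). The region at -59.9 kb scored 35.3, 0, 23.4 and 20.7 in hi-77-/- empty and at most 5.58 elsewhere, with calls for the deletion (adjusted p = 0.00933) and GATA2 (0.0154) although the groups overlapped. Both calls were lost when a peak had to cover 50% of the region (0.415 and 0.551) and when the fit held only the 8 libraries compared (0.0633 and 0.0974).

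The regions in Prr5l lay side by side and had the highest scores in different groups. At +84.2 kb, scores were 47.2, 46.9, 47.7 and 56.5 in hi-77+/+ empty, 46.5, 44.1, 0.59 and 39.2 in hi-77-/- empty, 22.3, 0, 0 and 0 with GATA2 and 40.3, 33.8, 37.0 and 30.0 with 9aa-Ins. At +84.8 kb, they were 0, 0, 8.2 and 9.9 in hi-77+/+ empty, 46.5, 61.0, 43.6 and 53.6 in hi-77-/- empty, 0, 43.0, 40.6 and 0 with GATA2 and 63.3, 56.3, 69.0 and 55.8 with 9aa-Ins. In the complete lists, 4 of 4 hi-77+/+ empty libraries had a peak at +84.8 kb, and 3 of 4 GATA2 libraries at each region. The deletion raised the score at +84.8 kb by 46.6 ± 8.9 (adjusted p = 0.00123), and 9aa-Ins exceeded GATA2 by 40.2 ± 8.9 (adjusted p = 0.00513). GATA2 gave lower scores than the empty vector at +84.2 kb (-27.0 ± 8.4, adjusted p = 0.0419) and +84.8 kb (-30.3 ± 8.9, adjusted p = 0.0319). The former was lost without any one of hi-77+/+ empty replicates 1, 2 and 3, hi-77-/- empty replicates 1, 2 and 4, GATA2 replicates 2, 3 and 4 or 9aa-Ins replicates 1, 2, 3 and 4 (adjusted p = 0.0521 to 0.123), and the latter without any one of hi-77-/- empty replicates 2 and 4 or GATA2 replicates 1 and 4 (adjusted p = 0.0715 to 0.0936). The difference of 29.7 ± 8.4 between 9aa-Ins and GATA2 at +84.2 kb (adjusted p = 0.0225) was lost without any one of GATA2 replicates 2, 3 and 4 or 9aa-Ins replicates 1 and 3 (adjusted p = 0.0524 to 0.0580). At +84.8 kb the deletion and GATA2 calls were lost with 0.5 of the 49000 peaks (differences of 7.3 and -7.3, adjusted p = 0.338 and 0.472) and with all deposited peaks (0.191 and 0.0609), and the GATA2 call also with peaks narrower than 1 kb (0.0523) and with only the 8 libraries compared (0.128). The GATA2 call at +84.2 kb was lost with 50% cover (0.158), with no filter on libraries (0.0577) and with only the 8 libraries compared (0.154).

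Tifa (ENSMUSG00000046688.14, chr3:127789805-127832164, plus strand) and Alpk1 (ENSMUSG00000028028.11, chr3:127670310-127780527, minus strand) are neighbors on chromosome 3. The Tifa promoter (chr3:127789661-127790239, overlapping the first exon and its UTR) was the weakest of the 4 member promoters by rank. Scores were 27.2, 20.3, 56.0 and 60.2 in hi-77+/+ empty and 17.9, 24.6, 22.6 and 55.9 in hi-77-/- empty. With GATA2 they were 0, 0, 0 and 16.2, and with 9aa-Ins 32.2, 24.3, 26.8 and 17.3. In the complete lists, 3 of 4 GATA2 libraries had a peak in this region. The GATA2 libraries were below every library of the other 3 groups. No comparison was called: the GATA2 difference was -26.2 ± 9.5 (adjusted p = 0.0833) and that between 9aa-Ins and GATA2 21.1 ± 9.5 (adjusted p = 0.155).

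A region at -2.5 kb of Tifa (chr3:127787090-127787458), between the Tifa and Alpk1 promoters, had peaks in hi-77-/- empty and 9aa-Ins libraries. Scores were 34.6, 0, 37.5 and 27.4 in hi-77-/- empty, 10.2, 18.8, 32.2 and 38.3 with 9aa-Ins and 0 in all hi-77+/+ empty and GATA2 libraries. It was thus opened by 9aa-Ins relative to GATA2, with a difference of 24.9 ± 7.2 (adjusted p = 0.0252). The deletion difference was 24.9 ± 7.2 (adjusted p = 0.0172) and the GATA2 difference -24.9 ± 7.2 (adjusted p = 0.0288). Both were called although 1 hi-77-/- empty library had no peak among the most significant ones taken. In the complete lists, 4 of 4 hi-77-/- empty, 1 of 4 hi-77+/+ empty and 0 of 4 GATA2 libraries had a peak there. The deletion call was lost without any one of hi-77-/- empty replicates 1 and 3 (adjusted p = 0.0530 to 0.0547), the GATA2 call without any one of hi-77-/- empty replicates 1, 3 and 4 or GATA2 replicates 1, 2, 3 and 4 (0.0553 to 0.0886), and the 9aa-Ins against GATA2 call without any one of GATA2 replicates 1 and 3 or 9aa-Ins replicates 3 and 4 (0.0501 to 0.0825). All 3 calls were lost with 50% cover (0.427, 0.562 and 0.561), and the GATA2 call also with only the 8 libraries compared (0.0767).

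The intergenic region at +63.7 kb of Tifa (chr3:127853434-127853612) was lower without the enhancer. It scored 34.9, 76.2, 47.2 and 56.1 in hi-77+/+ empty, 5.7, 0, 12.5 and 11.1 in hi-77-/- empty, 0 in all GATA2 libraries and 0, 4.9, 0 and 0 with 9aa-Ins. Every hi-77+/+ empty library was above the other 12, and the deletion changed the score by -46.3 ± 6.3 (adjusted p = 6.97e-05). Neither protein was called against the empty vector. This call was lost with 0.5 of the 49000 peaks (0.144). The strongest region in the window, at +47.7 kb and at the 5' end of Ap1ar, had a peak in all 16 libraries, scored from 89.9 to 98.5, and was not called.

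The Alpk1 promoter (chr3:127779937-127780691, overlapping the first exon and its UTR) had a peak in all 16 libraries. Scores were 62.3, 57.1, 47.2 and 60.2 in hi-77+/+ empty, 46.1, 60.8, 30.8 and 27.4 in hi-77-/- empty, 39.2, 52.6, 21.4 and 34.4 with GATA2 and 46.4, 24.3, 50.2 and 23.9 with 9aa-Ins. The groups overlapped and no comparison was called, with adjusted p = 0.194 for the deletion, 0.888 for GATA2 and 0.999 for 9aa-Ins.

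An intronic region of Alpk1, at +11.2 kb (chr3:127769066-127769608), was the single region near the members called higher with 9aa-Ins than with the empty vector. Its sequence (plus strand, GRCm38) holds a GATA word, in capitals.
Alpk1 +11.2 kb, chr3:127769176-127769475: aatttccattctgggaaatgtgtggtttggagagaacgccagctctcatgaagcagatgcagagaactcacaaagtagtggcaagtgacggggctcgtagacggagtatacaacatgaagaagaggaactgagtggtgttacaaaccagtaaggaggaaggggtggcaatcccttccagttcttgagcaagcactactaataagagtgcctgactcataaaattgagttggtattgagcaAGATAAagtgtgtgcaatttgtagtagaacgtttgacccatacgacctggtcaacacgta
Scores were 59.2, 61.5, 41.8 and 56.1 in hi-77+/+ empty, 57.8, 58.2, 64.3 and 47.0 in hi-77-/- empty and 51.5, 56.3, 67.4 and 62.9 with GATA2, and these 3 groups overlapped. With 9aa-Ins they were 86.3, 85.4, 88.3 and 84.8, above all of the other 12 libraries. 9aa-Ins exceeded the empty vector by 29.4 ± 4.7 (adjusted p = 0.00122) and GATA2 by 26.7 ± 4.7 (adjusted p = 0.000867). The deletion and GATA2 were not called there (adjusted p = 0.819 and 0.860). The deposited fold enrichment was 28.1 to 32.4 with 9aa-Ins and 7.41 to 12.3 with GATA2. The call against the empty vector was lost when a peak had to cover 50% of the region (0.0712).

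**Figure D4:**
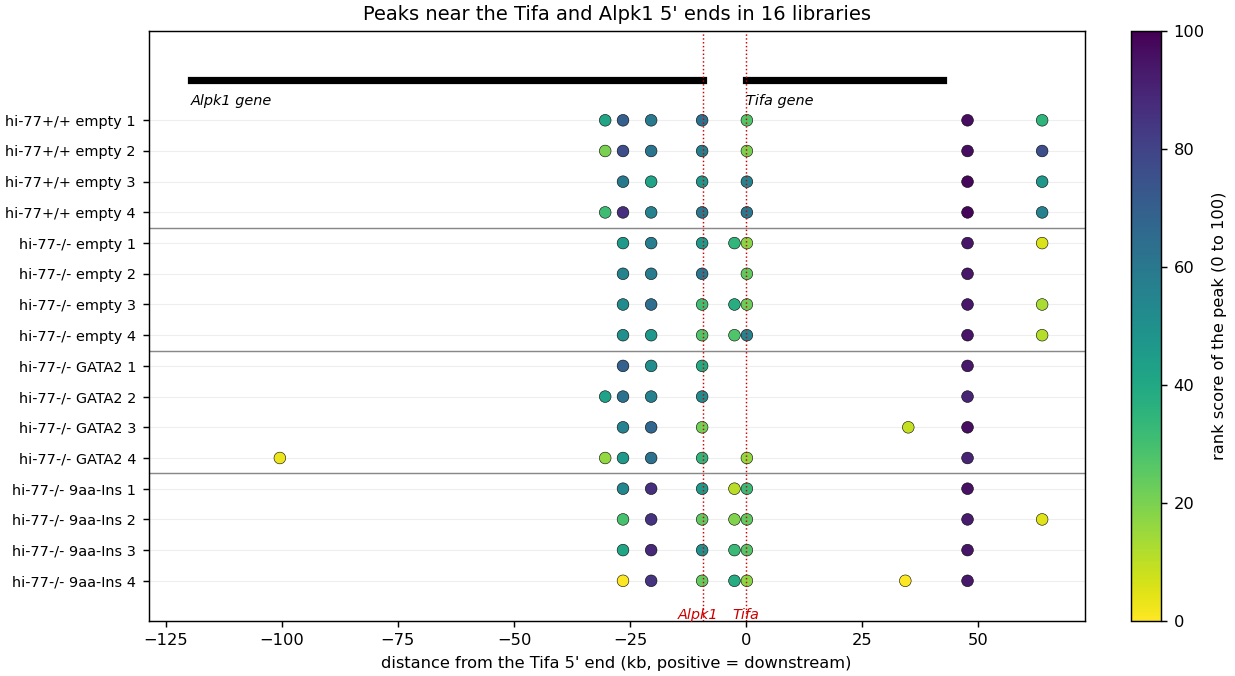
Each point is a region with a peak in that library, placed by its distance from the Tifa 5' end in kb and colored by its rank score from 0 to 100; bars mark the genes and the 16 libraries are rows. The Tifa promoter has a point in 1 of the 4 GATA2 rows and in all 12 others, and the intronic Alpk1 region at +11.2 kb from its own 5' end is darkest in the 9aa-Ins rows.

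**Figure D5:**
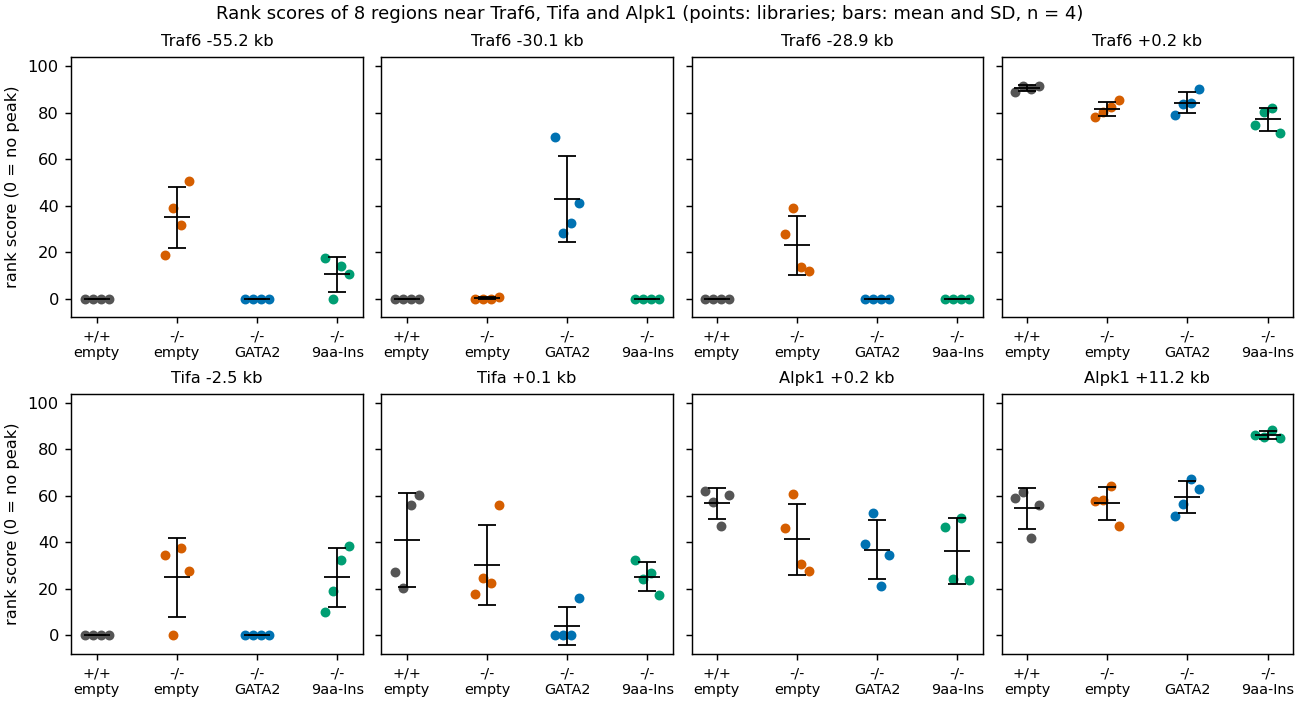
Rank scores (vertical axis, 0 to 100, 0 for no peak) of 8 regions near Traf6, Tifa and Alpk1 in 4 groups; points are libraries and bars the mean and SD (n = 4). The Alpk1 region at +11.2 kb is highest with 9aa-Ins, and the Traf6 region at -30.1 kb has scores above 1 with GATA2 alone.

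The number of top peaks with a summit within 100 kb was compared for each gene with an exact permutation test, counting both directions, in which 4 libraries against 4 allow no p below 0.0286. Around Traf6 there were 9, 9, 11 and 8 peaks in hi-77+/+ empty, 14, 13, 13 and 14 in hi-77-/- empty, 8, 9, 7 and 8 with GATA2 and 11, 9, 10 and 9 with 9aa-Ins. The hi-77-/- empty libraries had more peaks than any other library. Each of the 3 comparisons with hi-77-/- empty reached the smallest exact p, which 18.98% of all genes did after the deletion, 9.47% with GATA2 and 4.59% with 9aa-Ins, and the values adjusted over all genes were 0.151, 0.302 and 0.623. The difference between 9aa-Ins and GATA2 gave an exact p of 0.0857, and 11.9% of all genes reached the smallest p there. With a window of 50 kb, the deletion and GATA2 differences around Traf6 no longer separated the groups (exact p = 1 and 0.0857). With 0.5 of the 49000 peaks per library, the Traf6 differences were 1.25 for the deletion, -0.5 for GATA2 and 0 for 9aa-Ins (exact p = 0.200, 0.657 and 1), and with all deposited peaks -0.75, -4 and 0 (exact p = 0.971, 0.314 and 1).

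Around Tifab the peak numbers overlapped between groups, at 10, 14, 11 and 11 in hi-77+/+ empty, 12, 12, 14 and 13 in hi-77-/- empty, 11, 10, 15 and 11 with GATA2 and 14, 13, 13 and 12 with 9aa-Ins. The exact p was 0.343 after the deletion, 0.543 with GATA2, 1 with 9aa-Ins and 0.429 between both proteins. The GATA2 difference of -1 peak became -2.08 and separated the groups without GATA2 replicate 3 (exact p = 0.0286), and the deletion difference of 1.25 became 2.08 without hi-77+/+ empty replicate 2 (exact p = 0.0286). With 0.5 of the 49000 peaks per library, the groups separated around Tifab and not around Traf6, with Tifab differences of 2.5 for the deletion, -4.5 for GATA2 and 3.25 for 9aa-Ins against GATA2 (exact p = 0.0286 each). The bases covered by peaks, which also count width, did separate the groups around Tifab. The differences were 1773 bp for the deletion, -2663 bp for GATA2 and 3848 bp for 9aa-Ins against GATA2 (exact p = 0.0286 each). However, median peak widths over the whole lists also differed between groups (144 to 171 bp in hi-77+/+ empty, 172 to 208 bp in hi-77-/- empty, 158 to 195 bp with GATA2 and 184 to 208 bp with 9aa-Ins). Separation by bases covered was not particular to Tifab. For 9aa-Ins against GATA2 it was also seen around Traf6 (1509 bp, exact p = 0.0286). The share of all genes that separate is not given for bases covered or for 0.5 of the peaks. Around Tifa and Alpk1, whose windows share most peaks, the mean numbers were 7.75 ± 0.50 (SD, n = 4) in hi-77+/+ empty and 6.75 ± 1.26 in hi-77-/- empty. With GATA2 they were 5.25 ± 1.26 around Tifa and 5.50 ± 1.73 around Alpk1, and with 9aa-Ins 7.00 ± 1.41. No comparison of these peak numbers separated the groups around these genes, the lowest exact p being 0.171. Bases covered separated the groups around both genes for the deletion (-416.5 bp at each) and for 9aa-Ins against the empty vector (557 bp at each). They also did so for 9aa-Ins against GATA2, by 1125 bp around Tifa and 1101 bp around Alpk1 (exact p = 0.0286 throughout). With all deposited peaks, the Tifa peak number for 9aa-Ins against GATA2 also separated the groups (difference of 5.5, exact p = 0.0286).

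Other genes of the route from TRAF6 through TAK1 to NF-kB were examined as a list of 34, all of which had a promoter region that was tested. Within 1 kb of the 5' end, 5 of the 34 had a region called with the deletion, 2 higher and 3 lower, against 25.2% of all protein-coding genes with a tested promoter region. With GATA2 the count was 2, 1 higher and 1 lower (background 6.30%), with 9aa-Ins 0 (background 1.37%), and between 9aa-Ins and GATA2 3, 2 higher and 1 lower (background 6.50%). A called region within 100 kb is common: 31, 29, 16 and 29 of the 34 genes had one in the 4 comparisons in the same order, against 84.8%, 66.9%, 39.3% and 71.5% of all genes. The GATA2 count fell to 1 in 11 of the 16 fits that left out a library, the exceptions being those without hi-77-/- empty replicate 4, GATA2 replicates 1 and 2, and 9aa-Ins replicates 1 and 3, and the count between 9aa-Ins and GATA2 lay between 0 and 3 and was 2 or 3 without hi-77-/- empty replicates 1 and 4, GATA2 replicate 2, and 9aa-Ins replicates 1 and 4. The median difference in promoter score over the list was 0.20 after the deletion, -0.10 with GATA2, -0.07 with 9aa-Ins and -0.09 between both proteins, and over all genes it was -0.10, 0.72, 0.22 and -0.42.

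Among these, Nfkbie, which encodes an inhibitor of NF-kB, had a promoter region called in 3 of the 4 comparisons. Scores were 0 in hi-77+/+ empty and GATA2, 9.8 to 40.1 in hi-77-/- empty and 3.2 to 29.1 with 9aa-Ins. The deletion raised the score by 27.5 ± 6.1 (adjusted p = 0.00352), GATA2 differed from the empty vector by -27.5 ± 6.1 (adjusted p = 0.00565) and 9aa-Ins exceeded GATA2 by 18.8 ± 6.1 (adjusted p = 0.0447). Traf3, which encodes an adaptor that limits noncanonical NF-kB signaling, scored higher with GATA2 than with the empty vector by 32.8 ± 10.5 (adjusted p = 0.0482). The scores overlapped, at 39.1 to 70.4 against 0 to 48.7. For 9aa-Ins against GATA2 the Traf3 difference was -32.5 ± 10.5 (adjusted p = 0.0439), and the 9aa-Ins scores of 0 to 44.9 also overlapped those with GATA2. Nfkb1, which encodes an NF-kB subunit, scored higher with 9aa-Ins than with GATA2 by 27.7 ± 7.4 (adjusted p = 0.0168), with 61.3 to 73.5 against 21.4 to 46.2. With the deletion, Ikbkg, the regulatory subunit of the IkB kinase, scored lower (-11.7 ± 2.3, adjusted p = 0.00153), Tab1, a partner of TAK1, scored higher (10.6 ± 2.1, adjusted p = 0.00155), and Irak2, a kinase downstream of Toll-like receptors, scored lower (-8.8 ± 2.2, adjusted p = 0.00784).

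The promoters whose 16 rank scores were most like those of a member region were also identified, as a description over 16 libraries that share groups. For the Tifab region at +46.2 kb these were the promoters of Mymk (Pearson r = 0.920), Calm5 (r = 0.870) and Fgd3 (r = 0.853). For the Traf6 region at -30.1 kb they were Alpk3 (r = 0.976), Glb1l2 (r = 0.954) and H1foo (r = 0.941), each with a mean score of 0 outside the GATA2 libraries. For the Tifa promoter they were Hist1h4d (r = 0.833), Sorcs2 (r = 0.8292) and Cdk5 (r = 0.816). For the Alpk1 region at +21.1 kb, which had scores of 41.3, 20.3, 0 and 31.1 in hi-77+/+ empty, 0, 42.5, 0 and 16.2 with GATA2 and 0 elsewhere, they were Foxf1 (r = 0.896), Ncoa7 (r = 0.863) and Slc2a5 (r = 0.845).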

How the data were processed

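ATAC-Seq was performed on 16 libraries of mouse fetal liver progenitors in 4 groups of 4, taken from the labels. The authors trimmed reads with Trim Galore (0.4.1), aligned them to mm10 with Bowtie2 (2.2.5), removed duplicates with Picard (2.26.0), shifted read ends for Tn5, and ran MACS (2.0) on every library separately. The methods name the setting without a local background for the 3 hi-77-/- groups and do not name it for hi-77+/+, so a difference in this setting was not tested as a part of the deletion comparison. Each deposited peak has a fold enrichment (the ratio over the background of its library at its summit) and its significance as -log10 of p and of q. The lists hold no read counts, so the depth is unknown, no interval that needs it is given, and the count model of the study's methods could not be run.

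The 49000 most significant peaks per library on chromosomes 1 to 19 and X (ties by fold enrichment, then position) were ranked, and peaks overlapping by 1 bp were merged. Equal significance is frequent among weak peaks: the largest tie held 7.25% to 13.5% of a list. Rank scores of regions with a peak in at least 2 libraries were fitted with limma (3.58.1, R 4.3.3) on all 16 libraries, adjusted by Benjamini-Hochberg in each comparison, and called at an adjusted p under 0.05. Gene 5' ends are those of GENCODE M21, and sequences those of GRCm38.p6, within whose chromosome lengths all peaks lay. No 2 libraries shared more than 0.07% of their peaks exactly. Regions within 1 kb of a member's 5' end, those opened or closed, and up to 6 further called regions per gene with the largest differences were named, as were up to 6 genes of the pathway list with a called promoter region. The members and lists were chosen with earlier results of these data known. Scripts were tested on simulated data. The result of 1 marker gene is not reported here.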

Additional observations from a re-analysis of the deposited data

Results flagged for a closer look

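In groups of 4, a library was listed when its gap to the nearest other library, divided by the range of the group, exceeded the critical value of Dixon's test. Of 108 groups, 17 met this rule, where chance gives about 1 in 20, and groups with a peak in a single library meet it by construction. Peaks here are the most significant ones taken from each library, not those of the complete lists. Libraries with the only peak of their group were 9aa-Ins replicate 2 at Traf6 -59.9 kb (rank score 5.58) and at Tifa +63.7 kb (4.91), hi-77-/- empty replicate 4 at Traf6 -30.1 kb (0.72), GATA2 replicate 1 at Traf6 +84.2 kb (22.3), GATA2 replicate 4 at the Tifa promoter (16.2), GATA2 replicate 3 at Tifab +46.2 kb (14.3), hi-77+/+ empty replicate 1 (22.0) and GATA2 replicate 2 (8.95) at Tifab +27.3 kb, hi-77+/+ empty replicate 3 at Tifab -5.0 kb (12.6) and hi-77-/- empty replicate 2 at Tifab -12.5 kb (8.71).

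At Traf6 +84.2 kb, hi-77+/+ empty replicate 4 scored 56.5 (46.9 to 47.7 in the others) and hi-77-/- empty replicate 3 scored 0.59 (39.2 to 46.5 in the others). At Tifab +15.9 kb, GATA2 replicate 1 scored 0.59 (45.1 to 48.6 in the others). At Tifab +5.7 kb, hi-77-/- empty replicate 2 scored 87.7 (93.1 to 93.9 in the others) and 9aa-Ins replicate 3 scored 87.2 (93.5 to 94.2 in the others). The number of peaks around Tifa and around Alpk1 was 7 in hi-77+/+ empty replicate 3 and 8 in the other 3 libraries of that group. Causes were not tested.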

How the results depend on the processing

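Across 48 calls at named regions, 3, all at Tifab +19.4 kb, turned sign and were not called when peaks of 1 kb or wider were left out (-9.48 after the deletion, 30.07 with GATA2 and -54.7 in 9aa-Ins against GATA2, from 20.5, -20.01 and 18.9). That alternative left out the peaks of 1, 2, 0 and 3 libraries there in the order hi-77+/+ empty, hi-77-/- empty, GATA2 and 9aa-Ins. Apart from these turns of sign, 22 of the 48 calls kept their side of the threshold in all alternatives of the limma fit. The 22 include the calls at Tifab +19.4 kb with GATA2 and in 9aa-Ins against GATA2, which held in every alternative but that one. The Traf6 peak number difference for the deletion turned from 4.25 to -0.75 with all deposited peaks. An exact permutation test adjusted over all regions called 0 regions in each direction and comparison, since its smallest adjusted p was 0.109 to 0.274. At an unadjusted p under 0.05 it held 18 member regions after the deletion, 14 with GATA2, 6 with 9aa-Ins and 15 between both proteins. For the other counts below, the cause was not tested unless the alternative holds fewer peaks, libraries or bases by construction.

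With 0.5 of the 49000 peaks per library, the deletion gave 6 regions called higher (15 in the report) and 3 opened or closed (5), GATA2 0 higher (1) and 7 lower (14), 9aa-Ins 1 lower (4) and 0 opened or closed (1), and 9aa-Ins against GATA2 0 lower (1). Pathway promoters called were 1 for GATA2 (2) and 1 for 9aa-Ins against GATA2 (3), and members with separate peak numbers 0 for 9aa-Ins (1) and 1 between both proteins (0), and the separate member after the deletion and with GATA2 was Tifab in place of Traf6. With all deposited peaks, GATA2 opened or closed 5 (3), 9aa-Ins gave 4 higher, 1 lower and 2 opened or closed (1, 4 and 1), and 9aa-Ins against GATA2 22 higher and 5 opened or closed (10 and 2). Pathway promoters were 3 after the deletion, 1 with GATA2 and 5 in 9aa-Ins against GATA2 (5, 2 and 3), and separate peak numbers 0, 0, 0 and 1 in the 4 comparisons (1, 1, 1 and 0). Bases covered in place of peak number gave 4, 2, 2 and 4. With a window of 50 kb, the deletion gave 9 higher, 2 opened or closed and 0 separate peak numbers, GATA2 8 lower, 1 closed and 0, and 9aa-Ins 2 lower. Where a peak had to cover 50% of the region, the deletion gave 9 higher, GATA2 6 opened or closed, 9aa-Ins 2 lower, 0 opened or closed and 1 pathway promoter, and 9aa-Ins against GATA2 10 opened or closed and 1 pathway promoter. With peaks narrower than 1 kb, GATA2 had 1 pathway promoter, 9aa-Ins 2 higher, 2 lower and 2 opened or closed, and 9aa-Ins against GATA2 4 opened or closed and 1 pathway promoter. Ranks within chromosomes gave 2 higher for GATA2, and 2 lower and 1 pathway promoter for 9aa-Ins against GATA2. A fit of only the 8 libraries compared gave 9 lower and 1 pathway promoter for GATA2, and 2 lower and 1 pathway promoter for 9aa-Ins against GATA2. A peak in at least 4 libraries gave 2 lower for 9aa-Ins against GATA2, and no filter 1 pathway promoter. A minimum of 5 for -log10 q, and a mean rank for tied peaks, which was added after the data were seen, moved none of these counts by over 1.5 times.

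Leaving out each library in turn, the deletion gave 12 to 16 higher, 3 to 6 lower, 5 to 9 opened or closed (9 without hi-77-/- empty replicate 2), 4 to 6 pathway promoters and 1 to 2 separate peak numbers. GATA2 gave 1 to 3 higher (over 1 without GATA2 replicates 2 and 3), 9 to 13 lower (9 without GATA2 replicate 4), 3 to 7 opened or closed (over 4 without GATA2 replicate 2 and without hi-77-/- empty replicate 2), 1 to 2 pathway promoters and 1 to 2 separate peak numbers. 9aa-Ins gave 1 to 2 higher (2 without hi-77-/- empty replicate 1), 3 to 5 lower and 1 to 2 opened or closed (2 without 9aa-Ins replicate 3). 9aa-Ins against GATA2 gave 8 to 11 higher, 1 to 3 lower (over 1 without any GATA2 replicate and without 9aa-Ins replicate 1), 2 to 4 opened or closed (4 without GATA2 replicate 2), 0 to 3 pathway promoters and 0 to 2 separate peak numbers (over 0 without GATA2 replicates 2, 3 and 4).

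The labels number the libraries 1 to 4 in each group. Correlations of the deviations of same-numbered libraries were -0.0308 to 0.0812 and those of other pairs -0.0524 to 0.0563. For 9aa-Ins against GATA2 alone they were 0.0161 to 0.0812 and -0.0524 to 0.0307, and 3 of 4 libraries matched best with their own number. In the comparisons of the deletion, GATA2 and 9aa-Ins, 0, 0 and 1 did. The main fit did not pair the samples by number, and the replicate block is the alternative that does. With the replicate block, 14 regions were called higher and 4 lower after the deletion, 1 and 13 with GATA2, 1 and 4 with 9aa-Ins and 11 and 1 between both proteins, the pathway promoters for GATA2 were 1 (2 in the report), and 1 of the 48 calls was lost. For peak numbers, the replicate block allows no p below 0.125, which Traf6 reached in its 3 comparisons with hi-77-/- empty.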
